A study of Mus musculus with 4 samples.

Results

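The microglia-like nuclei were 400 of 13270 single nuclei kept from mouse medial prefrontal cortex. They were chosen by a score over 5 genes: Csf1r, Cx3cr1, Inpp5d, P2ry12 and Runx1. The score was the mean of log(1 + UMIs per 10000) over these genes, where a UMI (unique molecular identifier) counts 1 captured RNA molecule. A barcode had to show 500 or more genes and 800 or more UMIs, of which no more than 5% came from mitochondrial genes. Nuclei with at least 2 of the 5 genes detected were ranked, and the 400 highest scores were taken. The levels of these 5 genes, and the contrast of these nuclei with the other 12870, therefore follow from the choice and are given as a description, with no test.

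The tissue came from C57BL/6J mice, 9 weeks old, dissected 24 h after an injection of DOI or of saline. DOI is a psychedelic that acts on serotonin receptors, and saline is the vehicle control. All 4 samples, 1 female and 1 male for each injection, carried the same constructs: scFLARE2, a tool that reports active cells through light and calcium, and TRE-mCherry-p2a-bReaChES, which codes for a red fluorescent protein and an opsin. The promoter that drives the constructs is not given in the sources used here. The counts came as 1 matrix of 4 libraries, told apart by the endings 1 to 4 of the barcodes, and nothing used here ties a library to a sample. Values by library are therefore values of 4 unlabelled libraries, no DOI group was set against a saline group, and no p-value is given.

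Microglia are the resident macrophages of the brain. They arise from yolk-sac progenitors, depend throughout life on signalling through the receptor Csf1r and its ligands Il34 and Csf1, and take up their tissue identity under TGF-beta. Their processes survey the parenchyma, sense nucleotides through P2ry12 and the neuronal chemokine Cx3cl1 through Cx3cr1, and engulf synapses and debris that complement marks. Their lineage is set by transcription factors of the ETS, RUNX, IRF and MAF families, among which Spi1 (PU.1) binds DNA motifs built on the letters GGAA.

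Of the 5 genes of the score, 4 are placed here by the GENCODE M21 annotation of mm10. Inpp5d, a lipid phosphatase of blood cells, lies at chr1:87620312-87720507 on the plus strand. P2ry12, an ADP receptor, lies at chr3:59216272-59262871, Cx3cr1, the fractalkine receptor, at chr9:119901616-120069879, and Runx1, a lineage transcription factor, at chr16:92601466-92826149, all on the minus strand. The 250 bases before the RefSeq start (GRCm38.p6) are shown for 3 of them because they differ in an ETS-type motif. The letters searched on both strands were GAGGAAG and AGGAAGT, which share 6 letters and can overlap, and a match is in capitals.
Inpp5d, chr1:87620062-87620311, plus strand: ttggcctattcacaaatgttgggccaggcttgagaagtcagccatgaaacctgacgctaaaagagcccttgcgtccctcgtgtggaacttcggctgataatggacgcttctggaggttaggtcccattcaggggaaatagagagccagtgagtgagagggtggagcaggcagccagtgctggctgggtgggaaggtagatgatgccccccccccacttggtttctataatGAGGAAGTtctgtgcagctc
P2ry12, chr3:59262986-59263235, minus strand: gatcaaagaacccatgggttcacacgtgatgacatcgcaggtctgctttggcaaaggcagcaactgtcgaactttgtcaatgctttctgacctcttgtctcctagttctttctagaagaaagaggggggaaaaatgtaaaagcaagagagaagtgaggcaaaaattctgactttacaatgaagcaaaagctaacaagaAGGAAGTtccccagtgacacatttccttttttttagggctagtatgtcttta
Cx3cr1, chr9:120068297-120068546, minus strand: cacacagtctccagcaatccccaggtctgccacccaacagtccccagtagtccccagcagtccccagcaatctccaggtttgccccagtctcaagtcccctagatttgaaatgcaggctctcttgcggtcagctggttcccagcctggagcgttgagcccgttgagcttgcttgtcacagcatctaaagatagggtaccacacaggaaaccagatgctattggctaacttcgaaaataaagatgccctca

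In Inpp5d both motifs overlapped in 1 run, from 20 to 13 bases before the start. P2ry12 held AGGAAGT from 52 to 46 bases before its start. The window of Cx3cr1 and the 2 windows of Runx1 held neither. Over all 32851 promoter windows of the same length, 15.4% held at least 1 of the 2 motifs. The shares that follow count genes with a motif in any of their windows, and a gene can have more than 1 window. Among genes measured here with a window, the share was 17.5% (2135 of 12166). It was 20.03% among the 3146 genes with a window called higher in the microglia-like nuclei by the rule given below, and 32.9% (28.3 to 37.8) among the 392 that were at least 16-fold higher. Among the 162 that were at least 64-fold higher it reached 43.2% (35.5 to 51.2, exact binomial 95% interval), and among the genes called lower it was 17.4%. These shares count letters in a window and say nothing of whether a factor was bound.

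The microglia-like nuclei were shallow. Their median was 2391.5 UMIs (848 to 10046) and 1584 genes, beside 9157 UMIs in the other kept nuclei, and their median share of mitochondrial UMIs was 3.14% beside 1.49%. Only 12 of them had 1% or less, so a limit of 1% chose a set that was mostly other nuclei, in which the 26 identity genes described below summed to 3.13 UMIs per 10000. Libraries 1 to 4 gave 95, 166, 90 and 49 of them, which is 2.21%, 4.67%, 5.64% and 1.28% of the kept nuclei of each. Of 50 barcode sequences found in more than 1 library, 2 belonged to microglia-like nuclei. All 400 carried at least 3 of the 5 genes, 77 of them 3, 175 of them 4 and 148 all 5. The score had no gap at the limit: rank 400 stood at 1.44 and the next nucleus at 1.43. The last 10 nuclei inside carried a median of 11 of 26 further identity genes that the score did not use, and the first 10 outside a median of 10.5, so nuclei just outside the limit resembled those just inside. Of the next 200 nuclei after rank 400, 160 carried at least 5 of the 26, at a greater median depth of 3618.5 UMIs, but the 26 genes summed to 25.8 UMIs per 10000 in them, beside 103 in the 400. The comparison side thus still held nuclei with these genes.

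**Figure D1:**
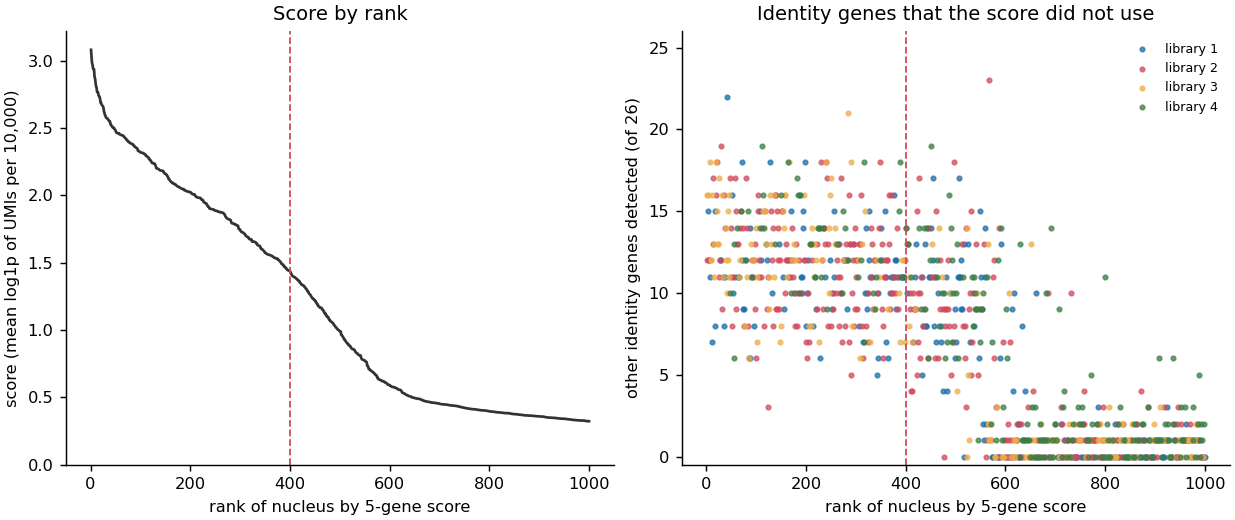
The left panel plots the 5-gene score of the 1000 highest ranked kept nuclei against rank, and the right panel plots, for each of these nuclei, how many of 26 other identity genes had a UMI, coloured by library. The dashed line marks the limit after rank 400; the score passes it without a step, and the count of identity genes drops only near rank 600.

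For each side, the UMIs of a gene over all its nuclei were divided by the total of that side and expressed as CPM. Higher or lower was called for a gene that had at least 100 UMIs over both sides, a CPM ratio of at least 2-fold, and a ratio of the same sign in every library with UMIs of the gene. Of 16781 genes with that many UMIs, 4051 (24.1%) were called higher in the microglia-like nuclei and 3830 (22.8%) lower, and these shares are the background for every list below. The median log2 ratio over all 16781 genes was 0.54 with genes at 0 UMIs placed at their bound, and 0.39 with those genes ranked lowest. Of the genes called lower, 1413 had no UMI in the microglia-like nuclei. The limit of 100 UMIs counts those of the microglia-like nuclei, so a gene could pass it through the side where it was high. Among 9694 genes with at least 10 UMIs expected in the microglia-like nuclei from both sides pooled, 24.8% were called higher and 22.5% lower. Intervals in brackets are 95% and cover counting error alone.

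The 5 genes of the score gave the following levels. Inpp5d stood at 2148 CPM in the microglia-like nuclei and 7.17 in the others, Runx1 at 1125 and 3.48, and Csf1r, the growth factor receptor, at 676 and 6.03. Cx3cr1 stood at 768 and 16.2 CPM, and P2ry12 at 687 and 61.3 CPM. P2ry12 lies inside Med12l on the opposite strand, and whether the counting used strand is not given in the sources used here; Med12l itself stood at 489 and 138 CPM. In every library all 5 genes were higher in the microglia-like nuclei than in the others, and library 3 had the highest level of each, from 751 CPM for P2ry12 to 2803 CPM for Inpp5d.

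The 26 identity genes that the score did not use describe these nuclei and are no test of the label. Their list was chosen with earlier results of these data known. All 25 with enough UMIs were called higher, and the remaining gene, the fructose transporter Slc2a5, had 33 UMIs at 31.5 CPM beside 0.405 CPM. With at least 10 UMIs expected in the microglia-like nuclei, 7 were called higher, since the rest did not reach that number. A microglia-like nucleus carried a median of 12 of the 26 (3 to 22), and all but 1 of the 400 carried at least 5. Another kept nucleus carried a median of 1. Their summed level was 103 UMIs per 10000, beside 1.30 in the other nuclei, 2.62 in the 400 nuclei with the highest score over 5 astrocyte genes, and 2.22 in 400 chosen likewise over 5 oligodendrocyte genes.

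Tmem119, a surface protein used to stain microglia, was sparse, with 84 UMIs at 122, 61.0, 110 and 33.5 CPM in libraries 1 to 4, beside 1.01 CPM in the other nuclei. Siglech, a lectin of resident microglia, was read at 414, 493, 577 and 313 CPM, beside 2.20 CPM, a log2 ratio of 7.73 (7.51 to 7.94). Every one of these library values lay above the highest library of the other nuclei, and library 4 was the lowest for both genes. Ikzf1, a lymphoid and myeloid transcription factor, had the largest ratio of the list, at a log2 ratio of 8.34 (8.16 to 8.53). Csf3r, the receptor of granulocyte growth factor, followed at 8.02 (7.81 to 8.22). Ly86, a partner of a Toll-like receptor homologue, was read at 947, 1006, 1633 and 1626 CPM, so that libraries 3 and 4 stood above libraries 1 and 2.

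**Figure D2:**
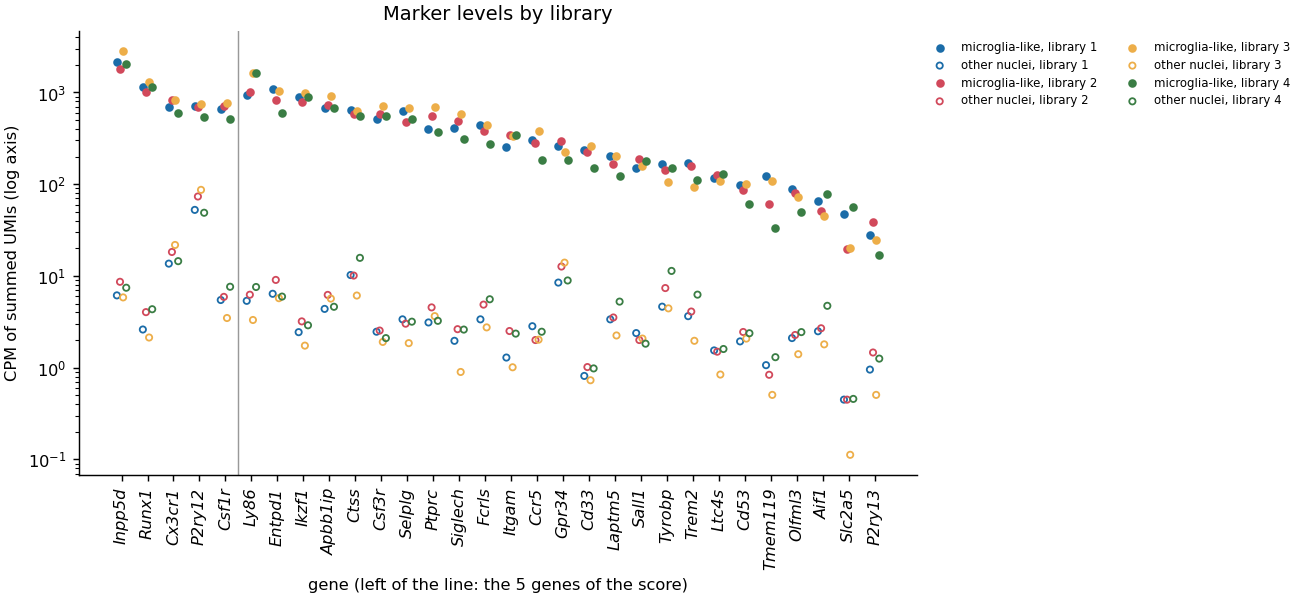
Filled points give the CPM (log axis) of each marker gene in the microglia-like nuclei of each of 4 libraries, and open points the CPM in all other kept nuclei of the same library. Left of the grey line are the 5 genes of the score; for all 25 identity genes drawn right of it, too, every filled point lies above every open point of the same gene.

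Transcription factors of the myeloid lineage were higher in 12 of 14 with enough UMIs, 1 was lower, and the median log2 ratio was 4.34. Spi1, the ETS factor PU.1, stood at 169 CPM beside 1.02, a log2 ratio of 7.37 (7.04 to 7.70). Fli1, another ETS factor, stood at 759 CPM beside 3.79 (7.65, 7.48 to 7.81). Irf8, a partner of PU.1, was read at 188, 220, 236 and 218 CPM in the 4 libraries, beside 2.41 CPM, and Sall1, a repressor that marks microglia among macrophages, at 151, 190, 158 and 179 CPM, beside 2.06. These 2 factors varied little from library to library. Mef2a, a MADS-box factor, stood at 1911 beside 190 CPM (3.33, 3.27 to 3.398); it overlaps Lysmd4 on the opposite strand, which stood at 1618 beside 157 CPM. Its relative Mef2c, which neurons also express, was 0.78 (0.71 to 0.85) on the log2 scale and missed the 2-fold size. Runx2 was the member called lower, at 92.6 beside 231 CPM (-1.32, -1.62 to -1.03).

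Signalling and cytoskeletal genes of blood cells were called higher in 18 of 19, with a median log2 ratio of 6.52. Their summed level was 10376 CPM beside 669 in the other nuclei. It was 310 CPM in the astrocyte-like but 4475 CPM in the oligodendrocyte-like nuclei, so the list is not particular to the microglia-like nuclei. Dock8, an exchange factor that guides leukocyte migration, was read at 937, 942, 1109 and 721 CPM, beside 3.03 CPM. Vav1, an exchange factor downstream of immune receptors, had a log2 ratio of 7.98 (7.62 to 8.34), and the adaptor Fyb 7.91 (7.77 to 8.05). Fyb overlaps an antisense gene on the other strand. Elmo1, an engulfment adaptor with the most UMIs of the list, stood at 2366 beside 234 CPM, and at 1273 CPM in the oligodendrocyte-like nuclei. The Src-family kinases diverged: Lyn stood at 1245 beside 60.7 CPM, while Fyn, the neuronal and glial member, was called lower at 59.2 beside 123 CPM (-1.05, -1.44 to -0.69), a call that was lost without library 2 or without library 3.

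Receptors through which the tissue maintains microglia were higher in 9 of 11, with 1 lower and a median log2 ratio of 5.33. Tgfbr1, the type I TGF-beta receptor, was read at 1653, 1462, 2287 and 1302 CPM, beside 17.4 CPM (6.58, 6.49 to 6.68), and 94.8% of the microglia-like nuclei had a UMI of it. Tgfbr2, the type II receptor, varied less, at 452, 447, 512 and 441 CPM beside 5.63. Tgfb1, the ligand itself, stood at 109 beside 0.970 CPM, and Nrros, which presents it on microglia, at 205 beside 5.11. The co-receptor Tgfbr3 had 2 UMIs and was called lower, at 1.91 beside 23.3 CPM. Csf2rb, the common beta chain of cytokine receptors, stood at 57.3 beside 0.405 CPM (7.14, 6.59 to 7.71). Of the ligands made by neighbouring cells, 2 of 8 were higher and 1 lower, the former a share near that of all genes and the latter under it. With at least 10 UMIs expected, 0 were called higher, since the 2 did not reach that number. Cx3cl1, the ligand of Cx3cr1, was at 88.8 beside 93.9 CPM (-0.08, -0.39 to 0.21). Il34, a Csf1r ligand made by neurons, was called lower at 9.55 beside 30.8 CPM. The ligands called higher were Csf1, at 59.2 beside 8.46 CPM, and Pros1, which bridges dying cells to Mertk, at 207 beside 7.82. Csf1 had 62 UMIs in 35 nuclei, and 5 of these held 26.

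Of 11 genes of nucleotide sensing and turnover with enough UMIs, 7 were higher and 3 lower, the latter a share near that of all genes. With 600 members none was called lower. P2ry6, a UDP receptor that triggers phagocytosis, stood at 235 beside 1.38 CPM (7.42, 7.13 to 7.70), and was read at 207, 242, 272 and 201 CPM in the 4 libraries. P2rx7, the ATP-gated channel, stood at 225 beside 5.39 CPM, and Entpd1, the ectoenzyme CD39 that removes ATP and ADP, at 892 beside 6.83 CPM. Library 4 had the lowest level of Entpd1, 603 CPM beside 823 to 1097 in the other 3. Those called lower were P2ry14, at 14.3 beside 175 CPM (-3.61, -4.45 to -2.89), Nt5e, which makes adenosine, at 2.86 beside 15.6, and the adenosine receptor Adora2a, at 0 UMIs beside 1.28 CPM. Since 3 counts correspond to 2.86 CPM in the microglia-like nuclei, no fold is given for Adora2a.

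Along the route from tagging to digestion, 7 of 7 complement genes, 13 of 14 engulfment and Fc receptor genes and 15 of 15 lysosomal genes with enough UMIs were called higher, and none lower. C1qb, a chain of the complement starter C1q, was read at 438, 417, 394 and 436 CPM, beside 16.6 CPM (4.66, 4.51 to 4.81), and C1qa at 447, 393, 309 and 263 CPM beside 17.3. C3, the central complement protein, had 3 UMIs. Mertk, a receptor for dying cells, was read at 1728, 1892, 2457 and 1643 CPM, beside 41.5 CPM in all other nuclei but 1775 CPM in the astrocyte-like nuclei, so its level was near that of this glial set. Itgb5, an integrin chain, stood at 757 beside 6.17 CPM and at 89.5 CPM in the astrocyte-like nuclei. Fcgr2b, the inhibitory Fc receptor, stood at 130 beside 1.17 CPM, and Trem2, a lipid receptor, at 137 beside 4.40 CPM. Among lysosomal genes the protease Ctss was read at 641, 578, 634 and 548 CPM beside 11.5, and Lgmn, another protease, at 683 beside 26.6 CPM. The lysosomal genes had the smaller median log2 ratio, 3.33, beside 4.98 for complement and 4.96 for engulfment.

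Of 24 genes for sensors of infection and damage and for cytokines, 11 had enough UMIs, and all 11 were called higher, with a median log2 ratio of 5.77. With at least 10 UMIs expected 2 were called higher, since the rest did not reach that number. Thinned to 800 UMIs 5 were called higher. Tlr7, which senses single-stranded RNA, was read at 273, 242, 276 and 240 CPM beside 1.49, and Il10ra, a receptor chain of the anti-inflammatory cytokine IL-10, at 188, 173, 195 and 162 CPM beside 1.04. Several cytokine and chemokine transcripts had few UMIs. Il18, a cytokine released by inflammasomes, had 110 UMIs in 87 nuclei, at 105 beside 12.1 CPM, but stood at 219.6 CPM in the astrocyte-like nuclei. It overlaps Bco2 on the opposite strand, which stood at 89.8 beside 0.527 CPM. Tnf had 7 UMIs, Il1b 3, Ccl2 11, Ccl3 7 and Ccl4 12 in all 400 nuclei, and Il1a had 32 UMIs in 6.25% of them.

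Interferon-response genes were higher in 11 of 12, with a median log2 ratio of 4.10; thinned to 800 UMIs, 2 were called. Trim30a, an inhibitor of innate signalling, had the most UMIs, 279, at 266 beside 6.18 CPM. Ifi204, a DNA sensor from a family of similar copies among which counting is uncertain, had the largest ratio, 7.35 (7.01 to 7.70). The libraries did not stand alike: the summed level of the 14 genes was 1097, 720, 873 and 1565 CPM in libraries 1 to 4. Stat2, a transcription factor of the type I interferon response, was read at 94.2, 73.2, 81.2 and 296 CPM. Library 4 thus stood above the other 3 for the list and for Stat2. At least 3 of the genes were found in 20.8% (16.9 to 25.1) of the microglia-like nuclei, in 3.25% of the astrocyte-like nuclei (median 3878 UMIs) and in 0.5% of the oligodendrocyte-like nuclei (3062 UMIs). Of the 49 microglia-like nuclei of library 4, 24 (49.0%) carried at least 3 of the genes, beside 18.9%, 14.5% and 18.9% in libraries 1 to 3, where the median depth was 2106, 2315 and 2555 UMIs and in library 4 it was 3331. With every nucleus thinned to 800 UMIs, 51.0% (36.3 to 65.6) of library 4 carried at least 1 of the genes, beside 31.6% (22.4 to 41.9), 31.9% (24.9 to 39.6) and 37.8% (27.8 to 48.6). Library 4 was also the highest, at 70.1 CPM, among the other nuclei, whose 4 libraries ranged from 45.9. Without library 4, 16.8% of the microglia-like nuclei carried at least 3 of the genes in place of 20.8%. The injection that library 4 stands for is not known here, and no part of depth or mitochondrial share (median 4.25% in library 4) in this difference was tested beyond the thinning.

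Of 6 antigen presentation genes with enough UMIs, 5 were called higher and 1 lower. B2m, the class I light chain, stood at 188 beside 14.6 CPM, and the class I genes H2-K1 at 102 beside 3.92 and H2-D1 at 76.4 beside 7.42, with the caution that these genes have near-identical relatives. The class II genes H2-Aa, H2-Ab1 and H2-Eb1 had 5, 8 and 3 UMIs. Cd74, their invariant chain, was called higher on 25 UMIs in 18 nuclei, and Ciita, the class II transactivator, lower on 6 UMIs, at 5.73 beside 13.8 CPM, a call lost without library 3.

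Of genes known from microglia around amyloid or damage, 1 had most of the UMIs. Of 14 with enough UMIs, 10 were higher and none lower, and the median log2 ratio was 2.84. Apoe, a lipid carrier also made by astrocytes, was read at 1978, 3168, 1535 and 2598 CPM, beside 336 CPM in the other nuclei and 1390 CPM in the astrocyte-like nuclei. Library 2 had the most and library 3 the least, and the other nuclei spanned 163 to 453 CPM over the libraries. Markers of the late state were sparse: Itgax had 3 UMIs, Cst7 4, Lpl 13 and Lgals3 11, and of these Lpl and Lgals3 met the rule for a higher call. Gpnmb, a lysosomal membrane protein, had 79 UMIs, but only 13 nuclei carried them and 5 of these held 60 UMIs (75.9%). Spp1, osteopontin, had 51 UMIs in 24 nuclei. The mouse orthologues of Alzheimer risk genes overlap this biology, and 13 of 17 were higher, with none lower. Thinned to 800 UMIs 7 were called higher, and with at least 10 UMIs expected 6 were. Picalm, an endocytic adaptor, stood at 946 beside 87.3 CPM, the cholesterol exporter Abca1 at 811 beside 16.5, and the sialic acid receptor Cd33 at 223 beside 0.909. Bin1, a membrane-bending protein, stood at 545 beside 98.6 CPM and at 784 CPM in the oligodendrocyte-like nuclei.

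**Figure D3:**
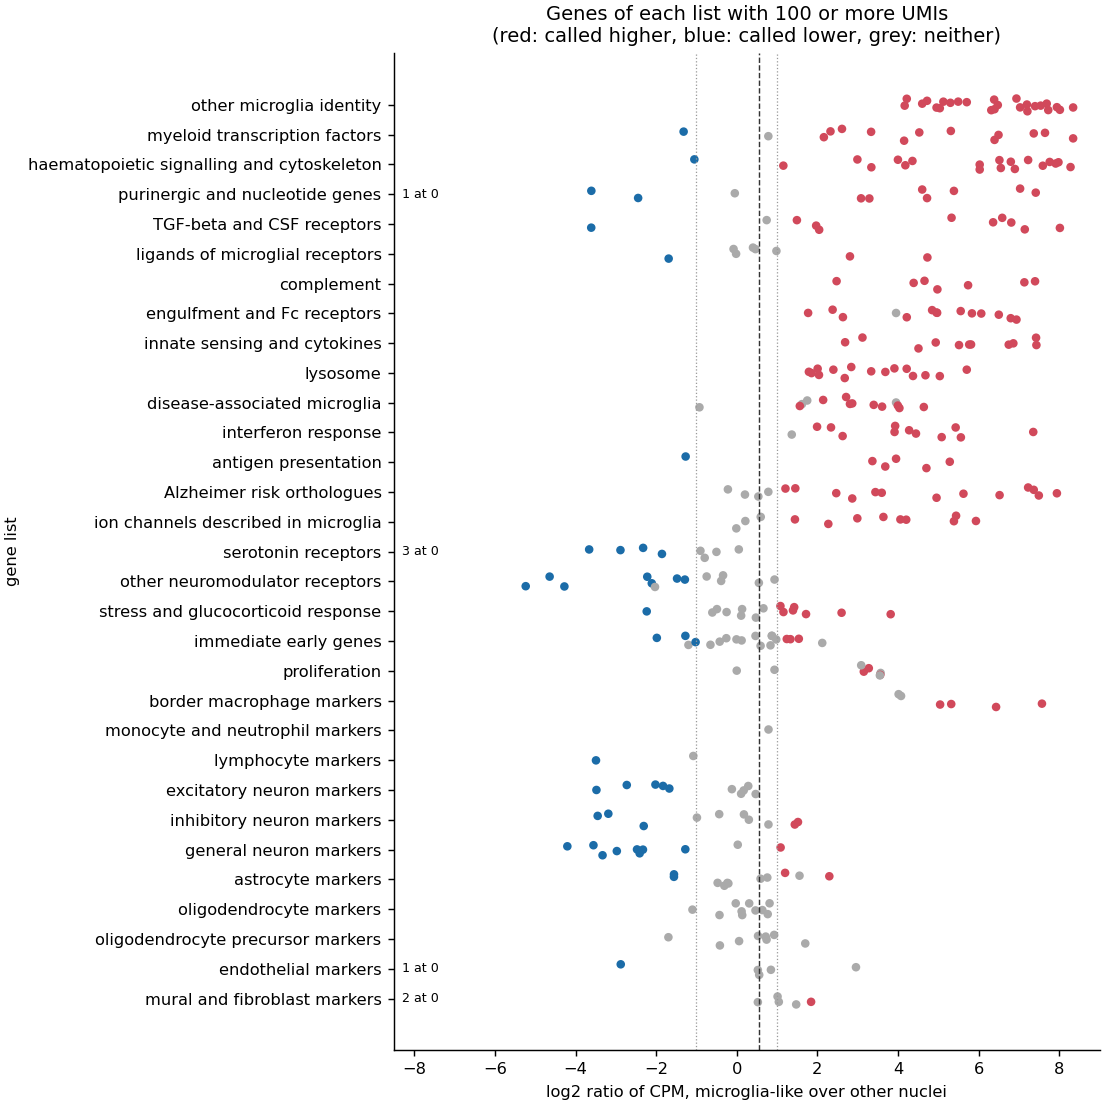
Each point is a gene of the named list with at least 100 UMIs, placed by its log2 ratio of CPM in microglia-like over all other kept nuclei; red was called higher, blue lower and grey neither, dotted lines mark 2-fold, and the dashed line marks the median of all genes, 0.54. Genes with no UMI in the microglia-like nuclei are counted at the left edge, and the myeloid and immune lists lie almost wholly to the right of the dashed line, while serotonin receptors and general neuron markers lie mostly to its left.

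Channels described in microglia were called higher in 9 of 12. Itpr2, an intracellular calcium release channel, stood at 409 beside 22.2 CPM. Kcnk13, the two-pore potassium channel THIK-1 that sets the microglial membrane potential, was read at 203, 210, 227 and 229 CPM beside 17.3 CPM, and at 206 CPM in the oligodendrocyte-like nuclei. Kcnk6, of the same family, had the largest ratio, 5.93 (5.49 to 6.37) on the log2 scale. The magnesium-linked channel Trpm7 was at 196 beside 169 CPM (0.21, 0.01 to 0.41), below the 2-fold size.

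No serotonin receptor was called higher. Of 11 with enough UMIs, 7 were lower and 4 neither, and their summed level was 70.6 to 117 CPM by library beside 439 to 492 CPM in the other nuclei. Htr2a, the main receptor through which DOI acts, had 12 UMIs in 12 of 400 nuclei, read at 9.42, 12.2, 4.06 and 22.4 CPM beside 41.5 CPM (-1.86, -2.81 to -1.05). In the astrocyte-like and oligodendrocyte-like nuclei it stood at 10.0 and 5.02 CPM, and at so few counts no order of these sets and the microglia-like nuclei can be read. Htr1f stood at 21.01 beside 266 CPM (-3.66, -4.34 to -3.06), Htr2c at 8.59 beside 63.5 CPM, and Htr4 at 6.68 beside 33.5. Htr1a and Htr1d had no UMI beside 1.42 and 0.795 CPM, under what 3 counts allow, and Htr7 none beside 6.79 CPM, which makes it at least 2.37-fold lower. The calls of Htr1a and Htr1d thus rest on the absence of UMIs at a depth that could hardly show them.

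Htr2b, a serotonin receptor described in microglia, was at 43.0 beside 41.5 CPM (0.05, -0.41 to 0.47). The same level was found in the astrocyte-like nuclei, 41.8 CPM, and in the oligodendrocyte-like nuclei, 48.8 CPM, so the 4 sets did not stand apart. By library it was 42.4, 56.1, 44.7 and 11.2 CPM. Htr2b lies inside Psmd1 on the opposite strand, and Psmd1 was likewise near-equal, at 98.4 beside 83.0 CPM. The remaining receptors had 4 UMIs or fewer: Htr1b 4 UMIs, Htr5a 3, Htr5b 2, Htr6 1, and Htr3a and Htr3b none.

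Receptors for other neuromodulators gave 0 higher and 7 lower of 13 with enough UMIs. Chrm3, a muscarinic receptor, stood at 18.1 beside 684 CPM (-5.24, -5.97 to -4.59), and the mu opioid receptor Oprm1 at 82.1 beside 229 CPM (-1.48, -1.80 to -1.18), the most UMIs of the list. Oprm1 was read at 51.8, 58.6, 158 and 67.1 CPM in the 4 libraries, all below the other nuclei, and at 7.07 and 7.90 CPM in the astrocyte-like and oligodendrocyte-like nuclei. Cnr2, the cannabinoid receptor CB2 known from immune cells, had 16 UMIs at 15.3 beside 0.168 CPM, fewer than 100 UMIs over both sides, and was not called.

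Stress and glucocorticoid genes were called higher in 7 of 15 and lower in 1. Thinned to 800 UMIs, or with 600 members, 4 were called higher, and at 4-fold 2 were. Their summed level was 2278 CPM beside 1126 in the other nuclei. It was 2345 and 2525 CPM in the astrocyte-like and oligodendrocyte-like nuclei, so the list did not stand above the other glia. Fkbp5, a co-chaperone that glucocorticoids induce, was read at 1046, 679, 1040 and 1017 CPM, beside 63.5 CPM in the other nuclei (3.82, 3.72 to 3.92). It also stood above the other 2 glial sets, which were at 222 and 268 CPM. Tsc22d3, a second glucocorticoid target, was at 80.2 beside 13.2 CPM but at 147 and 262 CPM in the astrocyte-like and oligodendrocyte-like nuclei, so for this gene the microglia-like nuclei were the lowest of the 3 sets. The receptor Nr3c1 was at 282 beside 133 CPM (1.08, 0.91 to 1.25). Zbtb16, another target, was called lower at 50.6 beside 238 CPM. Of 19 immediate early genes with enough UMIs, which many cells switch on briefly after stimulation, 3 were higher, 3 lower and 13 neither; without library 4, 5 were higher. Egr1 was read at 80.1, 107, 73.1 and 123 CPM beside 52.6, and Npas4, which is specific to neurons, was called lower at 8.59 beside 34.0 CPM.

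Dividing nuclei were rare in every set read. Of 10 proliferation genes, 8 had enough UMIs and 3 were called higher; 6 were without library 1, and 0 without the nuclei that carried markers of other cell types. At least 3 of the 10 were carried by 0.497% of the other nuclei. The share was 0.5% (0.0606 to 1.79) in the astrocyte-like and 0% (0 to 0.918) in the oligodendrocyte-like nuclei. The microglia-like nuclei, at a lower median depth, had the highest share, though its interval overlaps those of both glial sets. In them 8 of 400 nuclei (2.00%, 0.867 to 3.903) carried at least 3, and these 8 fell as 2, 2, 3 and 1 in libraries 1 to 4. Their level of Top2a, the topoisomerase of dividing cells, was 816 CPM (558 to 1152), and 9 nuclei held all 34 UMIs of this gene. Their median depth was 4629.5 UMIs beside 2374.5 in the rest, and the 26 identity genes summed to 8058 CPM in them beside 10419 in the rest. The summed level of the list was 104, 87.9, 398 and 89.4 CPM, so library 3 stood apart, on 3 nuclei.

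Macrophages at the borders of the brain share much of this profile, so their markers were read as well. Of 6 with enough UMIs 4 were called higher, but the most abundant of them was spread over the whole set: Stab1, a scavenger receptor, was found in 50.2% of the microglia-like nuclei at 320, 325, 418 and 341 CPM. Mrc1, the mannose receptor, was found in 24 nuclei, and 5 of these held 59 of its 85 UMIs. Cd163, Lyve1 and Pf4 had 12, 3 and 4 UMIs, all of them in library 2, and Cbr2, Cd209f and Cd209g had none.

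A group of 23 nuclei (5.75%, 3.68 to 8.503) carried at least 3 of the 14 border markers, 1, 10, 6 and 6 of them from libraries 1 to 4, with a median depth of 2981 beside 2338 UMIs in the other 377. The share was 3% among the 200 highest scores, 2.5% at a mitochondrial limit of 20%, and 1.92% and 1% with nuclei thinned to 1500 and 800 UMIs. Siglech stood at 158 CPM (81.5 to 275) in these 23 beside 490 CPM (447 to 536) in the rest. Apoe went the other way, at 5793 (5265 to 6360) beside 2183 CPM, and so did Gpnmb, at 486 (342 to 670) beside 43.3. P2ry12 and Cx3cr1, which chose the nuclei, were at 525 and 736 CPM beside 699 and 770. The group was formed from the same counts after they were seen and is a description. Markers of blood-borne cells were near absent: 5 of 10 monocyte and neutrophil genes and 12 of 14 lymphocyte genes had no UMI in the microglia-like nuclei, and the monocyte receptor Ccr2 had 6.

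**Figure D4:**
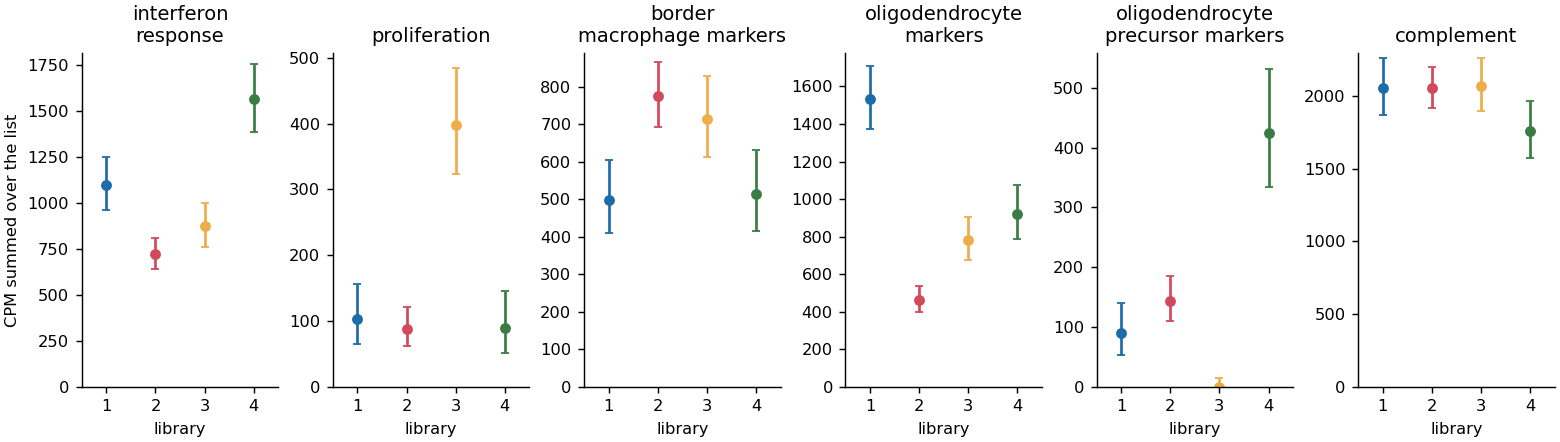
Points give the summed CPM of 6 gene lists in the microglia-like nuclei of libraries 1 to 4, with exact Poisson 95% intervals for counting error. Library 4 is highest for interferon response (1565 CPM) and for oligodendrocyte precursor markers (425 CPM, of whose 76 UMIs 68 are in 1 nucleus), library 3 for proliferation (398 CPM) and library 1 for oligodendrocyte markers (1535 CPM), while complement is nearly level.

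Markers of other cell types were also read in the microglia-like nuclei. None of 10 oligodendrocyte markers was called in either direction (1 lower without library 1); they stood at 464 to 1535 CPM summed by library beside 20372 CPM in the oligodendrocyte-like nuclei, and 36 nuclei carried at least 3 of them, 17 of these in library 1. Astrocyte markers stood at 1099 CPM beside 22491 CPM in the astrocyte-like nuclei, and 53 nuclei carried at least 3 of 11. Against the other nuclei, 2 of the 11 were called higher, 2 lower and 7 neither, with a median log2 ratio of -0.21; without library 2, 1 was higher, and without library 4, 4 were lower. Slc1a3, a glutamate transporter, was one called higher, at 320 beside 65.2 CPM, and Gfap, the astrocyte filament protein, the other, on 29 UMIs. Those called lower were the bicarbonate transporter Slc4a4, at 31.5 beside 92.9 CPM, and Gpc5, a proteoglycan, at 108 beside 318. Gpc5 had 113 UMIs in 14 nuclei, and 5 of these held 104, so its level is that of few nuclei. Of the 1151 UMIs of all astrocyte markers, 1 nucleus held 185. No precursor marker was called, but 3 were higher without library 3 and 2 lower without library 4. They were concentrated: 2 nuclei carried at least 3 of them, and 5 nuclei held 79 of the 85 UMIs of Lhfpl3, none in library 3. Of 9 endothelial genes 2, and of 10 mural and fibroblast genes 5, had no UMI. Leaving out the 101 nuclei with at least 3 border, astrocyte, oligodendrocyte or precursor markers gave 3515 genes called higher and 4214 lower.

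Neuronal transcripts formed 0.424% (0.412 to 0.437) of the UMIs of the microglia-like nuclei over 30 marker genes, beside 2.53% in the other nuclei. The share was 0.444%, 0.444%, 0.237% and 0.612% in libraries 1 to 4. It was of the same order in the astrocyte-like nuclei, 0.316%, and in the oligodendrocyte-like nuclei, 0.287%. In those sets, too, library 3 was the lowest and library 4 the highest, at 0.161% and 0.417% and at 0.179% and 0.415%. All but 1 of the 400 nuclei had a UMI of these genes.

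The composition of these transcripts differed from that of the other nuclei. Sst, the neuropeptide of an interneuron class, stood at 221 CPM beside 77.0, and the calmodulin-binding Nrgn at 390.6 beside 184 CPM. Slc17a7, the glutamate transporter of excitatory neurons, was at 237 beside 220 CPM. In contrast Rbfox1, a splicing factor with a very long gene, was at 307 beside 5648 CPM (-4.20, -4.37 to -4.05), and the nuclear noncoding RNA Meg3 at 583 beside 6851. Across the 30 genes, which are no independent replicates, Pearson's r of log10 CPM was 0.962 with the astrocyte-like nuclei, 0.946 with the oligodendrocyte-like nuclei and 0.796 with all other nuclei. Of the 30 genes, 26 lay within 2-fold of the astrocyte-like level, 25 of the oligodendrocyte-like level and 11 of the level in all other nuclei. What part RNA from outside these nuclei has in this was not tested.

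**Figure D5:**
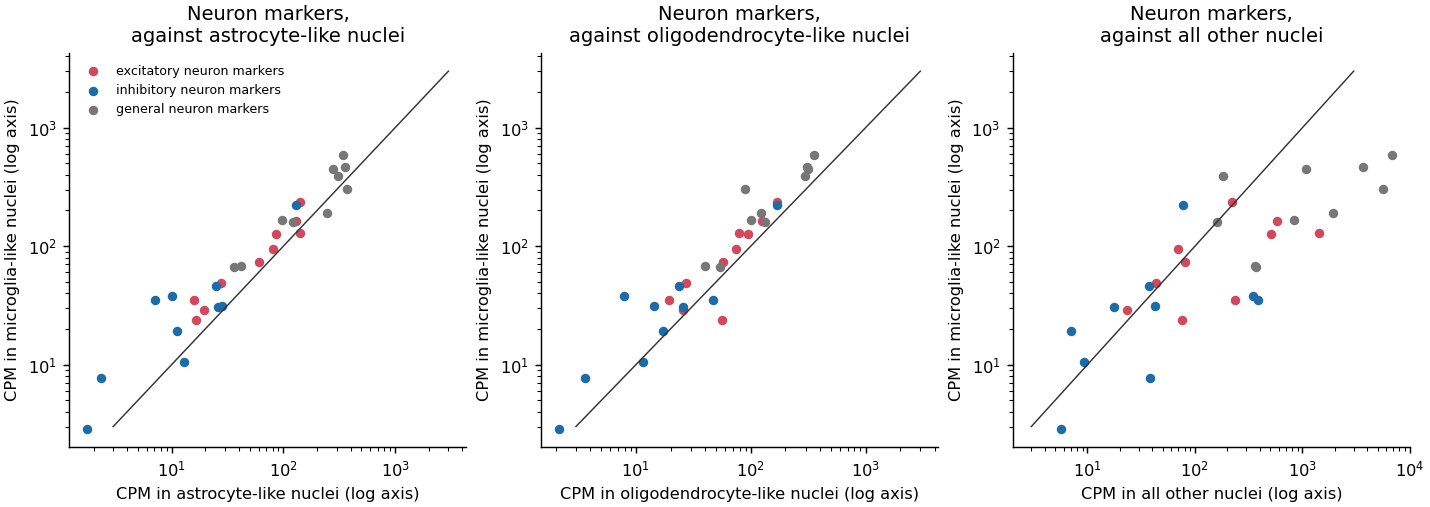
Each point is 1 of 30 neuron marker genes, with its CPM in the microglia-like nuclei (vertical log axis) against its CPM in astrocyte-like, oligodendrocyte-like or all other kept nuclei (horizontal log axes); the line marks equal levels. In the first 2 panels 26 and 25 of 30 genes lie within 2-fold of the line, with medians above it (log2 ratios of 0.62 and 0.46); in the last 11 lie within 2-fold, 11 lie above the line, and the median is -1.48.

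The genes with the largest ratios outside all lists were the following. Fgd2, an exchange factor for Cdc42 in antigen-presenting cells, led at 357 beside 0.863 CPM (8.69, 8.39 to 9.01), and was read at 381, 300, 459 and 318 CPM in the 4 libraries. Bin2, a membrane-bending protein of blood cells, followed at 192 beside 0.642 CPM, and Nlrp1b, an inflammasome sensor, at 207 beside 0.749. Adap2, which binds phosphoinositides, had the most UMIs of the group at 962 beside 3.62 CPM. It overlaps its antisense partner Adap2os, which stood at 854 beside 3.46 CPM, and the 2 cannot be told apart if the counting ignored strand. Arhgap45 stood at 464 beside 1.88 CPM, the transporter Slco2b1 at 506 beside 2.08, and the costimulatory ligand Cd86 at 278 beside 1.32. The metabolic factor Mlxipl stood at 217 beside 0.840 CPM, and the RNA-binding Rbm47 at 393 beside 1.86. Also in the group were Rcsd1 and Cyth4, at log2 ratios of 7.81 and 7.62. In the astrocyte-like nuclei the highest of these genes was Mlxipl, at 10.0 CPM. The lowest ratios belonged to Col19a1, a collagen of interneurons, with 1 UMI at 0.955 beside 79.0 CPM, and to Srrm4os, Lin28b, Col4a2 and Cntnap5c, with 1, 1, 1 and 3 UMIs.

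The reporter was barely read in these nuclei. TREmcherry had 25 UMIs in 24 nuclei (6.00%, at a median of 2391.5 UMIs), beside 8.79% of the other nuclei (9157 UMIs), and tTA had 7 UMIs in 5. Their summed level by library was 0, 48.8, 8.12 and 55.9 CPM in the microglia-like nuclei, and 5.55 to 25.3 CPM in the other nuclei. At 800 UMIs per nucleus TREmcherry was found in 1.75% of the microglia-like, 1.12% of the other, 1.75% of the astrocyte-like and 1.25% of the oligodendrocyte-like nuclei. At these few counts no order of the sets can be read.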

How the data were processed

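Single-nucleus RNA from 4 samples was read as UMI counts. Per the submitters' processing notes, the authors used Cell Ranger 7.1.0 on mm10; the deposited counts are whole numbers per feature and barcode, unnormalized, in 1 pooled matrix of 22402 barcodes, 32287 features (2 of them transgenes) and 157575088 UMIs. How barcodes were selected and libraries joined is not given in the sources used here. No table used here maps barcodes to samples, so the planned DOI against saline test was not run and nothing was inferred from expression. The 4 libraries held 40322155, 39336793, 19968985 and 57947155 UMIs.

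Counts were summed over nuclei and divided by the total (CPM). Ratios have exact conditional binomial, shares exact Clopper-Pearson and levels exact Poisson 95% intervals, all for counting error only. A gene with 0 counts was given a floor of 3 counts over the group. Thinning used fixed seeds. Doublets were removed only as an alternative (Scrublet in scanpy 1.11.5, per library, score over 0.25), which marked 279 of 13270 kept nuclei and 4 of the 400. The members, gene lists and tests were chosen with earlier results of these data known. Eligible to be named were the score genes, serotonin receptors and transgenes; in other lists, the 6 genes with most UMIs, the 3 largest ratios called in each direction and genes at 0; and, outside lists, the 12 largest and 5 smallest ratios among genes with 200 UMIs on the high side. Named after their values were seen, outside this rule, were C3, Ccl2, Ccl3, Ccl4, Cnr2, Cst7, H2-Aa, H2-Eb1, Il1a, Il1b, Irf8, Itgax, Lgals3, Lpl, Lyve1, Pf4, Sall1, Siglech, Slc2a5, Tmem119, Tnf and Trem2. Of 430 such and list genes, 426 matched GENCODE M21 by ID; 2 list genes had no feature. Promoters are from RefSeq (GRCm38.p6). Python 3.11.15, numpy 2.4.6, scipy 1.17.1 and pandas 2.3.3 were used. Results on some items are not reported here.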

Additional observations from a re-analysis of the deposited data

Results flagged for a closer look

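Barcodes left out of the kept nuclei held the same signal. Of 9132 removed barcodes, 348 (3.81%, 3.43 to 4.22) scored at least as high on the 5 genes as the lowest ranked of the 400 microglia-like nuclei. All 348 were removed by the mitochondrial limit, at a median of 7.35% mitochondrial UMIs. Their median depth was 2562.5 UMIs and they carried a median of 11 of the 26 other identity genes, with 82.6 identity UMIs per 10000 beside 103 in the 400. Libraries 1 to 4 held 75, 54, 12 and 207 of them, so library 4, which gave the fewest of the 400, held the most. Neuron markers formed 0.585% of their UMIs. The share of microglia-like nuclei per library therefore moves with this limit.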

How the results depend on the processing

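Libraries were not tied to samples, so the planned DOI against saline comparison was not run. No paired analysis was possible because no column carries a sample's replicate number. In all, 20 alternatives were run, 2 of them chosen after seeing the data. Calls numbered 4008 to 4347 higher and 3750 to 3854 lower with each library left out, and the neuron share was 0.385 to 0.482%. That share was 0.391% with 200 members, 1.19% with 600, 2.60% and 0.462% at mitochondrial limits of 1% and 20%, 0.457% with at least 1000 genes, 0.438% thinned to 800 UMIs, and 0.408% without nuclei carrying other types' markers. Higher calls numbered 116 at the 1% limit, 1817 thinned, 1535 at 4-fold and 2408 with at least 10 UMIs expected. Lower calls numbered 1727 with 600 members, 37 at the 1% limit, 2212 thinned, 6255 with at least 20 UMIs and 2183 with at least 10 expected. The last filter and the removal of nuclei with other types' markers were the added ones. The 1% limit shared 12 members with the 400, and the 20% limit 248. The median log2 ratio of all genes moved from 0.39 to 0.27 with nuclei weighted equally and to 0.18 thinned. Of 1122 counts of called genes per list, 174 moved by over 1.5 times. Thinned to 800 UMIs, or with at least 10 UMIs expected, interferon genes called higher were 2 in place of 11, disease-associated genes 4 in place of 10, proliferation genes 0 in place of 3, and serotonin receptors called lower 4 in place of 7; with 600 members 3 serotonin receptors were lower. With at least 10 UMIs expected, several other lists moved too. This filter takes genes with fewer expected UMIs out of those that can be called, whatever their ratio. Identity genes called higher were 7 in place of 25, and innate sensing genes 2 in place of 11. Blood-cell signalling genes were 9 in place of 18, engulfment genes 5 in place of 13, and complement genes 3 in place of 7. TGF-beta and CSF receptors were 4 in place of 9, antigen presentation genes 1 in place of 5, and border markers 0 in place of 4. Myeloid transcription factors were 7 in place of 12, and nucleotide genes 3 in place of 7. Ion channels were 4 in place of 9, and Alzheimer risk orthologues 6 in place of 13. Of 171 called named genes, 31 changed sign somewhere. At 600 members Ciita was 0.25, Skap1 0.63 and Gpc5 0.083 on the log2 scale. At the 1% limit the values were Runx2 0.048, P2ry14 0.46, Nt5e 0.20, Tgfbr3 0.33, Itgav -0.14, Cd63 -0.26, Ciita 0.11, Htr2c 0.23, Oprm1 0.0040, Oprd1 0.072, Hsp90aa1 -0.016, Nr3c1 -0.14, Btg2 -0.027, Ier5 -0.071, Cenpf -0.57, Skap1 0.58, Nxph1 0.27, Adarb2 0.015, Pvalb -0.44, Dlx6os1 0.38, Nrgn -0.033, Grin2b 0.0013, Slc4a4 0.10, Tek 0.074, Col19a1 0.25, Srrm4os 0.13 and Lin28b 0.048. Rgs5 was -0.055 at the 20% limit, Klf6 -0.31 thinned, and Gfap -0.30 without nuclei carrying other types' markers. Beyond the change of members and the loss of UMIs that these settings bring, the cause was not tested. Genes of few UMIs in the 400 nuclei, such as most serotonin receptors, are limited by depth.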
